A study of Mus musculus with 4 samples.

Results

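Expression of 33 imprinted genes was examined in undifferentiated spermatogonia, the testis cells that include the spermatogonial stem cells and the progenitors they form. The genes were taken by name from the known imprinted clusters and not by a measured value. Earlier results of these data were known when they were chosen. In all, 32 of the 33 were listed in every library, out of 27514 genes that the 4 libraries share, and Rian was listed in none. Of the 33, 18 are known to be expressed from the paternal allele, 14 from the maternal allele, and Gnas from both or from 1 of them depending on the promoter.

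The cells were sorted by flow cytometry from wild-type C57BL/6J mice of 6 to 8 weeks, as E-cadherin positive, CD49f positive and c-KIT negative cells. Mice were untreated (CTRL), or were sampled on day 10 after a single injection of busulfan (BU) at 10 mg/kg. Busulfan is an alkylating agent that kills undifferentiated and differentiating spermatogonia, and the paper states that this dose spares some of the former. Every library was a pool of 3 mice. There were 2 experiments with a CTRL and a BU pool in each, so n = 2 libraries per group, and the spread between mice was not measured. The sample labels give version 2 of the 10x Genomics 3′ kit for experiment 1 (CTRL 1 and BU 1) and version 3.1 for experiment 2 (CTRL 2 and BU 2), while the paper names version 2 for the libraries of the study without setting experiments apart.

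Imprinted genes are transcribed from the allele of 1 parent, which is set by methylation of DNA in the germline. Inherited marks are erased in primordial germ cells, and in the male the paternal marks are laid down before birth, so that adult spermatogonia already carry the sperm pattern. In this pattern the control regions of H19 and of the Dlk1-Meg3 cluster are methylated, while most other control regions are methylated in oocytes only. Many imprinted genes act on growth, with Igf2 promoting it and Igf2r, Grb10, Cdkn1c and Phlda2 restraining it. The mice were inbred and the reads come from the 3′ ends of transcripts, so the parental alleles cannot be told apart here, and a level says nothing about which allele was read.

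After filtering, the libraries kept 3101 (CTRL 1), 1120 (CTRL 2), 2008 (BU 1) and 1264 (BU 2) cells, with median counts of unique molecular identifiers (UMIs) per cell of 8066, 30931, 9857.5 and 34176.5. Values are given in this order of libraries throughout. A cell was called Gfra1+, Sox3+ or Kit+ when the natural log of 1 plus its UMIs of that gene per 100000 was above 2. Cells with more UMIs in all, as in experiment 2, need more UMIs of a gene to pass, so the classes are not alike between experiments. A cell below the threshold can still hold UMIs of the gene. Gfra1 encodes a GDNF receptor of stem cells, Sox3 a transcription factor of progenitors, and Kit the receptor of differentiating spermatogonia. The paper also describes Leydig cells of the testis as KIT positive, so a Kit+ cell need not be a spermatogonium. There were 585, 214, 865 and 528 Gfra1+ cells, 1470, 646, 473 and 264 Sox3+ cells, and 36, 37, 322 and 156 Kit+ cells. Levels are UMIs of a gene per 1000000 UMIs (CPM), summed over the cells of a class in a library, and their intervals cover counting error only.

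The germ cell markers summed to between 1408 and 2272 CPM over all cells of a library. Over all cells the stem cell list stood at 279, 223, 581 and 649 CPM, the progenitor list at 490.3, 413, 108 and 90.8 and the list of cell cycle genes at 509, 526, 1130.2 and 1090.0. Fewer cells of a type and less RNA per cell cannot be told apart in such sums. The Leydig cell list stood at 6379 CPM in Kit+ cells of CTRL 2, with none of its 6 genes at 0, against at most 4.10 in those of the other libraries. The spermatid list stood at 2803, 17013, 1001 and 8666 CPM over all cells. CTRL 2 and BU 2 shared 677 cell barcodes, 70 of them in cells that passed in both, and leaving out the smaller copy of each shared barcode changed no count of imprinted genes called.

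Promoters are shown for 3 genes that differed between BU and CTRL with the experiment as a block, both over all cells and in Sox3+ cells, as the 250 bases before the transcription start in GRCm38.p6 (RefSeq), 5′ to 3′ on the strand of the gene. Capitals mark TGCCGC or its reverse complement GCGGCA, the 6 letters read by ZFP57, a zinc finger protein that binds them when methylated and keeps imprints in the embryo. Mest (chr6:30737800-30738049, + strand, 1 of its 3 listed promoters) holds 2 matches, Plagl1 (chr10:13090582-13090831, + strand) holds 1 and Phlda2 (chr7:143502525-143502774, − strand) holds 0. For Mest a promoter with the most matches was taken, and its promoter at chr6:30733256-30733555 holds 0.
Mest: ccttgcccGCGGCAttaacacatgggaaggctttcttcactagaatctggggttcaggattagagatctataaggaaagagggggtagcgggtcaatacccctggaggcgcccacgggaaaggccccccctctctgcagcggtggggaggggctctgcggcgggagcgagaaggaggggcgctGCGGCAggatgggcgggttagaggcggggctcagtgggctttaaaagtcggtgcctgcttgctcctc
Plagl1: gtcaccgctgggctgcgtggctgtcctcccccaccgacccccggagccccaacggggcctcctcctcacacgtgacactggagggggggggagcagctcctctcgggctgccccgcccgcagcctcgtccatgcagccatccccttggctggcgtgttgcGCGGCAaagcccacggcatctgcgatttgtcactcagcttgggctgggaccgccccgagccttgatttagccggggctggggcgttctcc
Phlda2: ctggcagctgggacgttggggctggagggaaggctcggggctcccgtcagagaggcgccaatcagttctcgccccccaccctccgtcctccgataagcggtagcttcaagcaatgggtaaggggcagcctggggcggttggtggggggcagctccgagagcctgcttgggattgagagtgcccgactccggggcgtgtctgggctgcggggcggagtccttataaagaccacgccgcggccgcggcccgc
These windows hold 14, 19 and 21 CpG dinucleotides, in the same order. Promoters of 27 of the 33 genes were in the RefSeq table, as 300-base windows that run to 50 bases after the start, and H19, Peg10, Impact, Sgce, Cdkn1c and Nespas were not matched. Among the 27, 9 genes (33.3%) had a match in at least 1 promoter, against 13.1% of 27025 gene symbols. The 9 were Mcts2, Nnat, Mest, Zim1, Snrpn, Igf2, Plagl1, Grb10 and Meg3. Counted by promoter, 10 of 42 (23.8%) held a match, against 11.6% of 32851. The median promoter held 13 CpGs against 7 over the 32851. The motif itself holds a CpG, and the part of CpG content in these shares was not tested. A match is a description of these letters and not a binding site.

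Of the 32 genes, 24 reached 10 CPM in at least 1 library of Gfra1+, Sox3+ or Kit+ cells. The 8 that did not were Peg10, Magel2, Sgce, Airn, Usp29, Slc22a18, Zim1 and Asb4, whose highest level was 9.07 CPM. Magel2 did not pass 0.60 CPM in any class, Asb4 0.89, Zim1 1.78, Airn 1.99, Usp29 5.33 and Peg10 5.42. In Kit+ cells 3 UMIs equalled 9.07 CPM in CTRL 1 and 2.66 in CTRL 2, so a lower level there rests on 1 or 2 UMIs. These ranges hold for classes that may overlap. Among cells positive for 1 defining gene only, Sgce reached 22.2 CPM in Kit+ cells of CTRL 2, where 1 cell gave 7 of its 9 UMIs.

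Gfra1+ cells differed from Sox3+ cells in 9 of 25 imprinted genes tested. Mest, Igf2, Ndn, Impact and H19 were higher in Gfra1+ cells, and Dlk1, Phlda2, Grb10 and Ppp1r9a were lower, each in 4 of 4 libraries. The share called was 36.0%, against 12.8% of 12213 genes tested. In a further list of imprinted genes, described below, 0 of 18 were called in the same comparison. For this comparison only cells above the threshold for 1 of the 3 defining genes were summed (433, 134, 729 and 454 Gfra1+ cells against 1299, 552, 245 and 128 Sox3+ cells). Of the 454 Gfra1+ cells of BU 2, 152 still held a Sox3 UMI and 109 a Kit UMI, against 12 and 11 of the 729 of BU 1. The library was a block in the quasi-likelihood test of edgeR, with p adjusted over all genes by Benjamini-Hochberg. The median log2 fold change was 0.36 over the 25 genes and 0.02 over all genes.

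Among paternally expressed genes, Mest, which encodes an enzyme of the alpha/beta hydrolase family, stood at 26.2, 31.7, 54.3 and 48.0 CPM in Gfra1+ cells against 9.36, 7.65, 22.8 and 23.0 in Sox3+ cells (log2 fold change 1.43, SE 0.22, adjusted p = 0.00172 in edgeR). The lowest Gfra1+ library was above the highest Sox3+ library. Igf2, the growth factor, stood at 8.03, 3.15, 114 and 2.74 CPM against 2.76, 1.01, 42.8 and 1.75 (1.32, SE 0.22, adjusted p = 0.00225 in edgeR). Within each library Gfra1+ cells had the higher level, while BU 1 stood far above the other libraries in both classes. Ndn, encoding necdin, a growth suppressor of the MAGE family, stood at 54.3, 60.3, 44.3 and 46.0 CPM against 22.4, 23.7, 28.7 and 24.5 (1.01, SE 0.17, adjusted p = 0.00253 in edgeR). Impact, which encodes a regulator of the translation kinase GCN2, stood at 29.9, 19.9, 19.04 and 16.1 CPM against 12.8, 9.81, 9.83 and 8.95 (0.99, SE 0.23, adjusted p = 0.0147 in edgeR). Neither Ndn nor Impact overlapped between the classes. Dlk1, encoding a transmembrane protein related to Notch ligands, went the other way, at 29.9, 20.2, 20.2 and 24.5 CPM against 78.3, 64.7, 62.5 and 64.0 (-1.56, SE 0.22, adjusted p = 0.000977 in edgeR), also without overlap.

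The long non-coding RNA H19, expressed from the maternal allele of the locus that holds Igf2, stood at 55.6, 42.2, 50.6 and 27.9 CPM in Gfra1+ cells against 20.3, 13.2, 25.2 and 17.1 in Sox3+ cells (1.17, SE 0.21, adjusted p = 0.0037 in edgeR). H19 and Igf2 were thus both higher in the Gfra1+ class. Phlda2, a pleckstrin homology domain protein that limits growth of the placenta, stood at 10.2, 6.56, 2.85 and 4.16 CPM against 93.8, 79.1, 37.3 and 38.2 (-3.43, SE 0.28, adjusted p = 7.29e-05 in edgeR), the lowest adjusted p of the 25 genes. Grb10, an adaptor that dampens insulin and IGF receptor signalling, stood at 3.09, 4.98, 2.33 and 1.98 CPM against 6.44, 12.3, 24.4 and 11.9 (-2.23, SE 0.41, adjusted p = 0.00442 in edgeR). Phlda2 had no overlap between the classes, and Grb10 was lower within each library. The neighbour of Sgce and Peg10, Ppp1r9a, which encodes a scaffold of protein phosphatase 1, stood at 8.95, 27.8, 14.1 and 18.5 CPM against 19.6, 59.3, 29.9 and 27.1 (-0.98, SE 0.17, adjusted p = 0.00306 in edgeR). Plagl1, encoding a zinc finger transcription factor, had the higher level in Gfra1+ cells of 4 of 4 libraries and did not pass (1.30, SE 0.40, adjusted p = 0.0525 in edgeR). By parental class, 4 of 14 paternally expressed genes were higher and 1 lower, and 1 of 10 maternally expressed genes was higher and 3 lower.

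**Figure D1:**
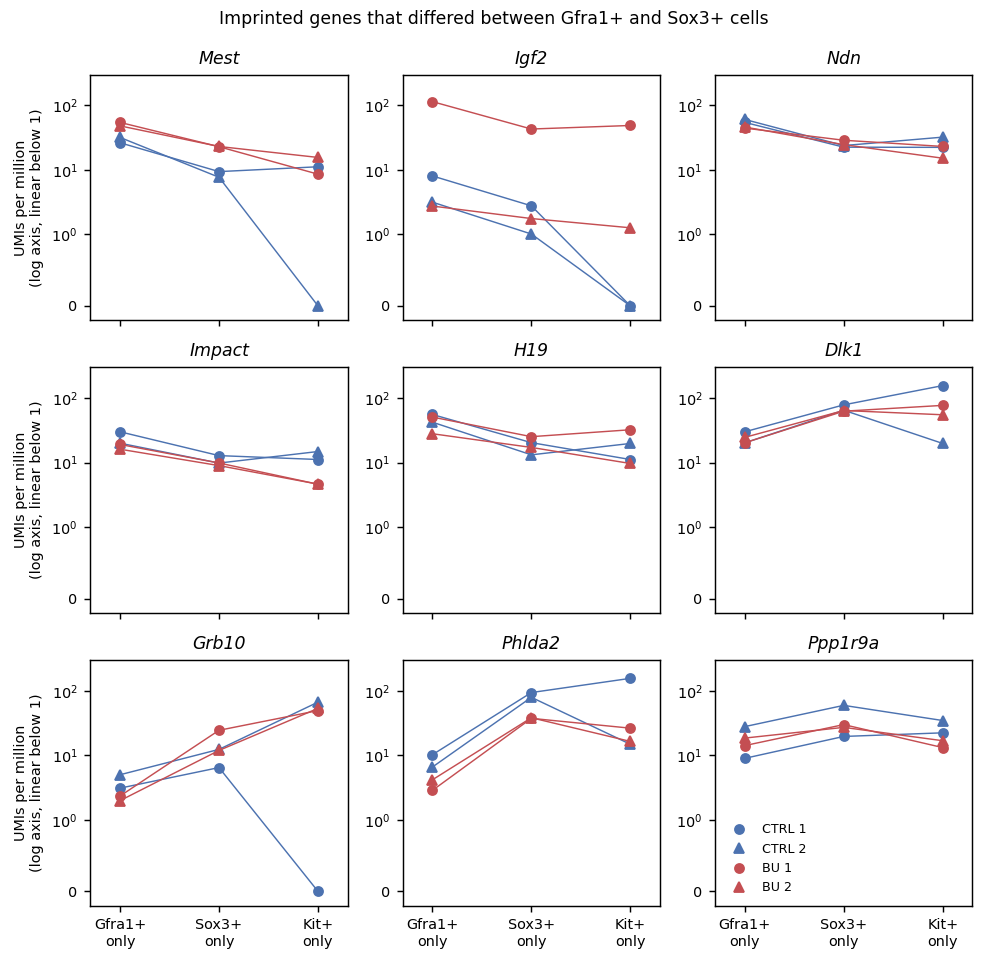
Levels of the 9 imprinted genes that differed between Gfra1+ and Sox3+ cells, for cells above the threshold for 1 of the 3 defining genes only. Values are in CPM on a log axis that is linear below 1. Each line is 1 library (blue, CTRL; red, BU; circles, experiment 1; triangles, experiment 2). Mest, Igf2, Ndn, Impact and H19 go down from Gfra1+ to Sox3+ in 4 of 4 libraries and Dlk1, Grb10, Phlda2 and Ppp1r9a go up.

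The number called moved with the libraries and cells used. Without CTRL 2 it was 17, with cells that carry somatic markers left out 15, and with a class set by any UMI of its gene 3 (Mest, Phlda2 and Grb10). Igf2 lost its call without BU 1 (adjusted p = 0.16 in edgeR), and Impact without CTRL 1, BU 1 or BU 2 (adjusted p = 0.141, 0.0866 and 0.0766 in edgeR). With each cell thinned to 5000 UMIs and classes set by any UMI, 14 were called. The share of all genes called is not given for these settings, so these numbers do not set imprinted genes apart.

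Kit+ cells differed from Sox3+ cells in 6 of 25 imprinted genes, on 10, 15, 152 and 53 Kit+ cells. Of the 53 in BU 2, 34 held a Sox3 UMI below the threshold, against 4 of the 152 in BU 1. The 15 Kit+ cells of CTRL 2 held 405295 UMIs. Without cells that carry somatic markers, 13 cells with 251494 UMIs were left. Leaving out cells with spermatid markers instead left 11 cells with 306569 UMIs. The Kit+ levels of CTRL 2 below are shares of the sum that holds all of these cells. Kcnq1ot1 and Grb10 were higher in Kit+ cells, and Cdkn1c, Ppp1r9a, Mcts2 and Phlda2 were lower. The share called was 24.0%, against 14.3% of 12213 genes. Over all genes the median log2 fold change was -0.04 with TMM scaling and 0.07 with the size factors of DESeq2, a shift of 0.11, and 29.1% of the genes called were higher in Kit+ cells with the first and 48.0% with the second.

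Kcnq1ot1, the paternally expressed non-coding RNA that silences its neighbours in cis, stood at 55.7, 163, 168 and 237 CPM in Kit+ cells against 34.4, 82.5, 89.6 and 97.7 in Sox3+ cells (0.92, SE 0.17, adjusted p = 0.00745 in edgeR). Cdkn1c, a maternally expressed gene of the same cluster that encodes the cyclin-dependent kinase inhibitor p57, stood at 33.4, 39.5, 34.2 and 29.4 CPM against 84.4, 80.5, 76.3 and 86.6 (-1.38, SE 0.17, adjusted p = 0.00155 in edgeR). Cdkn1c was lower and Kcnq1ot1 higher in 4 of 4 libraries, and for Cdkn1c the classes did not overlap. Of the same cluster, Ascl2, Cd81 and Tssc4 were higher in Kit+ cells in 3 of 4 libraries without being called. Phlda2 was lower in 3 of 4. A link between Kcnq1ot1 and these genes was not tested. The Kit+ level of Cdkn1c in CTRL 1 was 3 UMIs, with an interval of 6.89 to 97.6 CPM that includes the Sox3+ level. That of Kcnq1ot1 in CTRL 1 was 5 UMIs, with an interval of 18.1 to 130 CPM that also includes the Sox3+ level. In BU 2, 1 cell gave 88 of the 565 Kcnq1ot1 UMIs of Kit+ cells. Grb10 stood at 0 UMIs in Kit+ cells of CTRL 1, where 3 UMIs equal 33.4 CPM, and at 66.6, 49.3 and 53.3 CPM in the other libraries (1.74, SE 0.40, adjusted p = 0.0182 in edgeR). Grb10 was therefore lowest in Gfra1+, higher in Sox3+ and highest in Kit+ cells in 3 of 4 libraries. Of these, CTRL 2 held 27 Grb10 UMIs in its Kit+ cells, 11 of them from 1 cell. Mcts2, a retrogene inside an intron of H13 that is similar to Mcts1 and so may share reads with it, stood at 11.1, 22.2, 41.4 and 47.4 CPM against 54.5, 50.7, 56.6 and 61.3 (-0.78, SE 0.20, adjusted p = 0.0291 in edgeR). Its level in Kit+ cells of CTRL 1 was 1 UMI, with an interval of 0.28 to 62.0 CPM that includes the Sox3+ level. Ppp1r9a stood at 22.3, 34.5, 13.1 and 16.8 CPM (-0.98, SE 0.22, adjusted p = 0.015 in edgeR) and was lower in 3 of 4 libraries, of which CTRL 2 held 14 UMIs, while the higher level of CTRL 1 was 2 UMIs. Phlda2 stood at 156, 14.8, 26.3 and 16.4 CPM (-0.997, SE 0.30, adjusted p = 0.0485 in edgeR), was lower in 3 of 4 libraries, and did not pass with the size factors of DESeq2 (adjusted p = 0.087 in edgeR).

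Without CTRL 2, whose Kit+ cells hold the Leydig transcripts, 13 genes were called, and with cells that carry somatic markers left out 11. Without CTRL 1 it was 4, without BU 1 1 (Cdkn1c), and 0 in edgeR without BU 2 or with classes set by any UMI, with or without thinning. Here too the share of all genes called is not given, so these numbers do not set imprinted genes apart.

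Between BU and CTRL, no imprinted gene passed the threshold in the fit with condition alone, and 0% of all genes passed it over all cells or in any class. Over all cells 0 of 30 were called in edgeR, with 5 at an unadjusted p under 0.05 (5.34% of 17354 genes), and DESeq2 called 2 (0.691% of genes), Phlda2 lower and Plagl1 higher. With the experiment as a replicate block edgeR called 3 genes (1.49% of genes), Mest and Plagl1 higher and Phlda2 lower in BU. In 19 of the 30 genes both BU libraries lay above (12) or below (7) both CTRL libraries, against 33.4% of all genes. The median log2 fold change was 0.30 over the 30 genes and 0.07 over all genes.

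Phlda2 stood over all cells at 67.0, 51.6, 14.5 and 10.6 CPM, or 59.3 ± 10.8 in CTRL and 12.5 ± 2.75 in BU (SD, n = 2). Its log2 fold change was -2.22, SE 0.24, adjusted p = 0.0223 in edgeR with the block, and -2.22, SE 0.37, adjusted p = 0.869 with condition alone. Plagl1 stood at 1.396, 1.59, 5.96 and 7.37 CPM, or 1.49 ± 0.137 and 6.66 ± 0.999 (SD, n = 2), and rose with the block (edgeR, 2.18, SE 0.33, adjusted p = 0.0344). For Mest the levels were 15.1, 10.2, 41.0 and 32.6 CPM (edgeR with the block, 1.58, SE 0.26, adjusted p = 0.0402). Neither CTRL library reached the level of a BU library for Mest or Plagl1, and the reverse held for Phlda2. Gnas, encoding the alpha subunit of the stimulatory G protein, stood at 83.2, 106, 158 and 181 CPM and did not pass (edgeR with the block, 0.87, SE 0.19, adjusted p = 0.0763). The stem and progenitor lists moved between the same libraries, as given above, and their part in these differences was not tested.

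In Sox3+ cells the block called 6 of 29 genes, against 5.69% of 14445 genes, with Plagl1, Mest, Kcnq1ot1 and Grb10 higher and Phlda2 and Sgce lower in BU. The fit with condition alone called 0 of 29 in edgeR, with 7 at an unadjusted p under 0.05 (14% of genes), and DESeq2 called 4 (2.31% of genes), which were Mest, Plagl1, Grb10 and Phlda2. BU and CTRL libraries did not overlap in 20 of the 29 genes, 12 higher and 8 lower in BU, against 46.9% of all genes. The progenitor list itself stood at 707, 593, 269 and 232 CPM in these cells, and the list of cell cycle genes at 486, 519, 1014 and 1175. Kit stood at 2.05, 6.61, 48.6 and 65.7 CPM, with a UMI in 26 of 1470 cells of CTRL 1, 76 of 646 of CTRL 2, 136 of 473 of BU 1 and 131 of 264 of BU 2. The part of the progenitor and cell cycle genes in the differences was not tested. In Sox3+ cells that are neither Gfra1+ nor Kit+ (1299, 552, 245 and 128 cells), an alternative chosen after seeing the data, the block called 3 of 28 genes (1.38% of 13535 genes), which were Mest and Igf2 higher and Phlda2 lower. Plagl1, Kcnq1ot1, Grb10 and Sgce were not called there. Below the threshold, Kit UMIs remained in 2, 46, 1 and 31 of these cells and Gfra1 UMIs in 4, 117, 4 and 44, so the set was not free of either. Igf2 stood at 2.76, 1.01, 42.8 and 1.75 CPM in these cells, high in BU 1 alone. The gene lists of the experiments differ at Igf2, as described below.

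Plagl1 stood at 0.877, 1.27, 5.68 and 5.30 CPM in Sox3+ cells, or 1.07 ± 0.275 in CTRL and 5.49 ± 0.271 in BU (SD, n = 2; edgeR with the block, 2.27, SE 0.36, adjusted p = 0.0335). Mest stood at 10.0, 7.87, 25.7 and 21.7 CPM, or 8.94 ± 1.52 and 23.7 ± 2.81 (SD, n = 2; edgeR with the block, 1.37, SE 0.21, adjusted p = 0.0324). Both were above CTRL in each BU library by more than the spread between libraries. Kcnq1ot1 stood at 34.9, 83.7, 98.7 and 147 CPM (edgeR with the block, 1.105, SE 0.22, adjusted p = 0.0433), where the CTRL libraries differed from each other by more than CTRL 2 differed from BU 1. Without cells also Gfra1+ or Kit+ it stood at 34.4, 82.5, 89.6 and 97.7 CPM and did not pass (edgeR with the block, 0.78, SE 0.28, adjusted p = 0.195). Sgce, encoding epsilon-sarcoglycan, stood at 8.85, 4.35, 2.15 and 1.24 CPM (edgeR with the block, -1.95, SE 0.32, adjusted p = 0.0351). The maternally expressed Grb10 stood at 6.21, 11.9, 29.8 and 31.3 CPM, or 9.04 ± 3.997 in CTRL and 30.5 ± 1.07 in BU (SD, n = 2; edgeR with the block, 1.75, SE 0.27, adjusted p = 0.0324). Without cells also Gfra1+ or Kit+ it stood at 6.44, 12.3, 24.4 and 11.9 CPM, with BU 2 below CTRL 2, and did not pass (edgeR with the block, 0.88, SE 0.41, adjusted p = 0.325). Grb10 and Kcnq1ot1 are the genes found higher in Kit+ than in Sox3+ cells above, and the part of Kit+ cells in their BU difference was not tested. Leaving out cells also Gfra1+ or Kit+ took the Sox3+ cells of BU 1 from 473 to 245 and those of BU 2 from 264 to 128. The share of all genes called went from 5.69% to 1.38%. In Gfra1+ cells the levels of Grb10 were 2.94, 4.61, 2.68 and 4.55 CPM and overlapped between the groups. Phlda2 stood at 90.7, 73.9, 33.7 and 27.2 CPM in Sox3+ cells, or 82.3 ± 11.9 and 30.5 ± 4.57 (SD, n = 2; edgeR with the block, -1.48, SE 0.18, adjusted p = 0.024). Without cells also Gfra1+ or Kit+, Mest (1.43, SE 0.31, adjusted p = 0.0378) and Phlda2 (-1.20, SE 0.25, adjusted p = 0.0338) passed in edgeR with the block, and Plagl1 (1.90, SE 0.55, adjusted p = 0.101) and Sgce (-1.78, SE 0.45, adjusted p = 0.0663) did not.

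**Figure D2:**
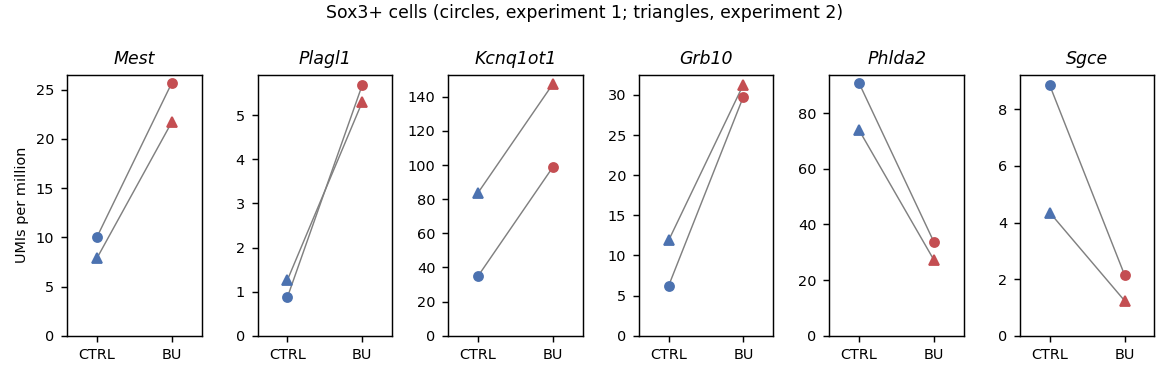
Levels of the 6 imprinted genes called between BU and CTRL in Sox3+ cells with the experiment as a block, in CPM on linear axes from 0, with a scale for each gene. Each line joins the CTRL (blue) and BU (red) library of 1 experiment (circles, experiment 1; triangles, experiment 2), and both lines go up for Mest, Plagl1, Kcnq1ot1 and Grb10 and down for Phlda2 and Sgce.

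In Gfra1+ cells 0 of 26 genes were called in edgeR with condition alone (3 at an unadjusted p under 0.05, against 4.28% of 13632 genes) and 0 with the block (0.066% of genes), where Phlda2 came nearest (edgeR, -2.07, SE 0.31, adjusted p = 0.0549). DESeq2 called Phlda2 alone there (0.11% of genes), with 24.7, 19.5, 4.19 and 5.41 CPM. The BU and CTRL libraries did not overlap in 10 of the 26, 5 higher and 5 lower, against 32.4% of all genes. Mest stood at 22.9, 22.6, 53.1 and 44.7 CPM and Plagl1 at 1.89, 2.67, 6.44 and 11.4 in Gfra1+ cells, and neither passed with the block (adjusted p = 0.0861 and 0.0771 in edgeR). The progenitor list stood at 215, 195, 59.9 and 67.5 CPM within this class.

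Among Kit+ cells 0 of 24 genes were called in edgeR with condition alone (3 at an unadjusted p under 0.05, against 8.24% of 11030 genes), 0 with the block (0.952% of genes) and 0 by DESeq2 (0.417% of genes). Phlda2 stood at 154, 42.6, 30.5 and 19.5 CPM and came nearest with the block (edgeR, -1.77, SE 0.39, adjusted p = 0.0512). The libraries did not overlap in 11 of the 24 genes, 6 higher and 5 lower, against 38.3% of all genes. Levels of Gnas (51.4, 211, 79.9 and 89.3 CPM) and of the tetraspanin Cd81 (142, 463, 250.1 and 152 CPM) were highest in CTRL 2, where 1 cell gave 163 of the 238 Gnas UMIs and 1 cell gave 265 of the 521 Cd81 UMIs.

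Whether the difference between BU and CTRL was itself different in Gfra1+ and Sox3+ cells was tested with a class by condition term. Only cells positive for 1 defining gene were used. Of 25 imprinted genes, 0 passed in edgeR (0.00819% of 12213 genes) and 0 in DESeq2 (0.0409% of genes), while 3 had an unadjusted p under 0.05 in edgeR (6.56% of genes). These were Tssc4 (edgeR, -0.49, SE 0.16, adjusted p = 0.668), Grb10 (edgeR, -1.57, SE 0.64, adjusted p = 0.704) and Cdkn1c (edgeR, -0.38, SE 0.17, adjusted p = 0.758). Grb10 was called in all Sox3+ cells and not in those left for this test. The term therefore cannot tell whether its BU difference in all Sox3+ cells was particular to them. For Phlda2 the difference between the classes was 0.21 (SE 0.50) and for Mest -0.47 (SE 0.33).

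Igf2 (ENSMUSG00000048583, GRCm38 chromosome 7, 142650766 to 142666816, − strand) had the largest BU to CTRL ratio of the 30 genes in experiment 1 and a small ratio in experiment 2. Over all cells of the untreated libraries it stood at 4.08 CPM (exact Poisson 95% interval 3.34 to 4.92) and 1.25 CPM (0.92 to 1.66). After busulfan it stood at 82.8 CPM (78.9 to 86.8) in experiment 1 and 1.78 CPM (1.43 to 2.18) in experiment 2. BU 2 lay below CTRL 1, so the groups overlapped. These libraries are of different experiments, whose gene lists differ at Igf2 as described below. In Gfra1+ cells the levels were 7.34, 2.53, 110.4 and 2.56 CPM, and in Sox3+ cells 3.07, 1.07, 48.6 and 1.82. Kit+ cells had 0 UMIs in both CTRL libraries and 54.2 and 1.52 CPM in BU. The log2 fold change over all cells was 4.01, SE 1.88, adjusted p = 0.978 in edgeR, and without BU 1 it was -0.78. Without BU 2 the log2 fold change of Igf2 over all cells was 4.99 in edgeR, with BU 1 alone in the BU group.

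The Igf2 UMIs of BU 1 were spread over 922 of its 2008 cells, with at most 13 in 1 cell, against 101 of 3101 cells in CTRL 1, 47 of 1120 in CTRL 2 and 84 of 1264 in BU 2. In BU 1, 4 of 13 cells with spermatid markers had an Igf2 UMI (median depth 15054 UMIs), with 62.6 CPM (31.3 to 112), and 3 of 27 cells with somatic markers did (median depth 3960). The interval of the spermatid-marker cells includes the level over all cells of BU 1, and how much of the Igf2 count is free RNA or doublets was not tested. Gfra1+ cells of that library stood at 110 CPM (103.7 to 117.3), above its Sox3+ cells at 48.6 (42.7 to 55.0) and its Kit+ cells at 54.2 (46.6 to 62.6) by more than the counting error. In experiment 2 the gene list also holds Gm49394, on the same strand, which covers 62.8% of the exonic bases of Igf2 and 99.7% of the last 1000. Reads that match both genes are not counted for either, and the part of this overlap in the Igf2 counts of experiment 2 was not tested.

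H19 (ENSMUSG00000000031, chromosome 7, 142575529 to 142578143, − strand) stood at 30.0, 16.5, 40.0 and 19.6 CPM over all cells and at 49.9, 34.6, 50.1 and 28.0 in Gfra1+ cells. In Sox3+ cells the levels were 22.2, 14.6, 26.4 and 19.03 CPM, and in Kit+ cells 33.3, 20.4, 30.8 and 15.6. In each of these sets of cells both libraries of experiment 2 lay below their counterparts of experiment 1, and the BU libraries overlapped the CTRL libraries.

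**Figure D3:**
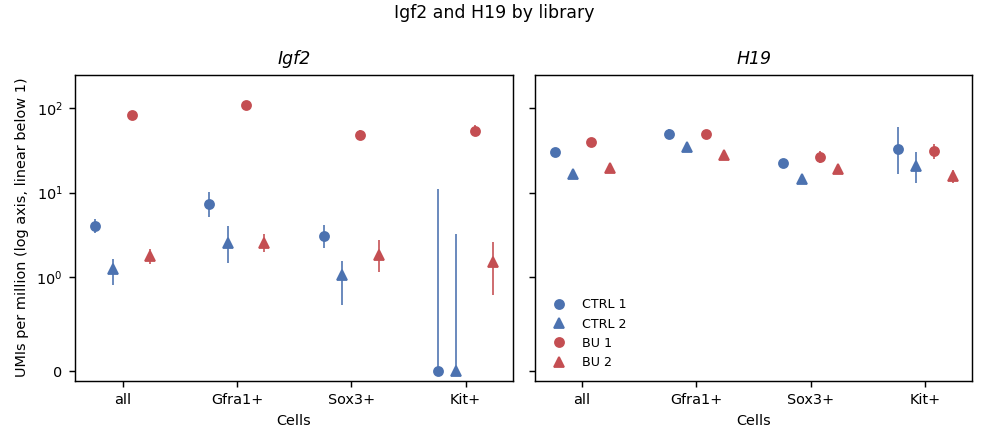
Levels of Igf2 and H19 in CPM, on a log axis that is linear below 1, in all cells and in Gfra1+, Sox3+ and Kit+ cells (blue, CTRL; red, BU; circles, experiment 1; triangles, experiment 2). Bars are exact Poisson 95% intervals. BU 1 stands apart for Igf2, at 82.8 over all cells against at most 4.08 in the other libraries, while the BU and CTRL libraries overlap for H19. The gene list of experiment 2 alone holds Gm49394, which overlaps Igf2 on the same strand, so Igf2 levels are not counted alike in the experiments.

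The 2 experiments share no library, and were set side by side as the log2 ratio of BU to CTRL, with 0.5 CPM added to both. Over all cells 26 of 30 imprinted genes had the same sign (86.7%), 18 of them higher and 8 lower in BU in both experiments, against 65.7% of 17354 genes. The exceptions were Impact, Igf2r, Ppp1r9a and Asb4. In Sox3+ cells 24 of 29 had the same sign (72.6% of all genes did), in Gfra1+ cells 18 of 26 (59.5%) and in Kit+ cells 17 of 24 (60.3%). The median difference between the experiments, regardless of sign, was 0.23 for the imprinted genes and 0.33 for all genes over all cells, and 0.81 and 0.59 in Kit+ cells. Igf2 differed most, at 4.19 in experiment 1 and 0.38 in experiment 2, followed by Ppp1r9a, at 0.17 and -1.38. For Igf2 the gene lists also differ, with the overlapping Gm49394 in that of experiment 2 only. Phlda2 gave -2.17 and -2.23, Plagl1 1.77 and 1.91, and Mest 1.42 and 1.62.

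**Figure D4:**
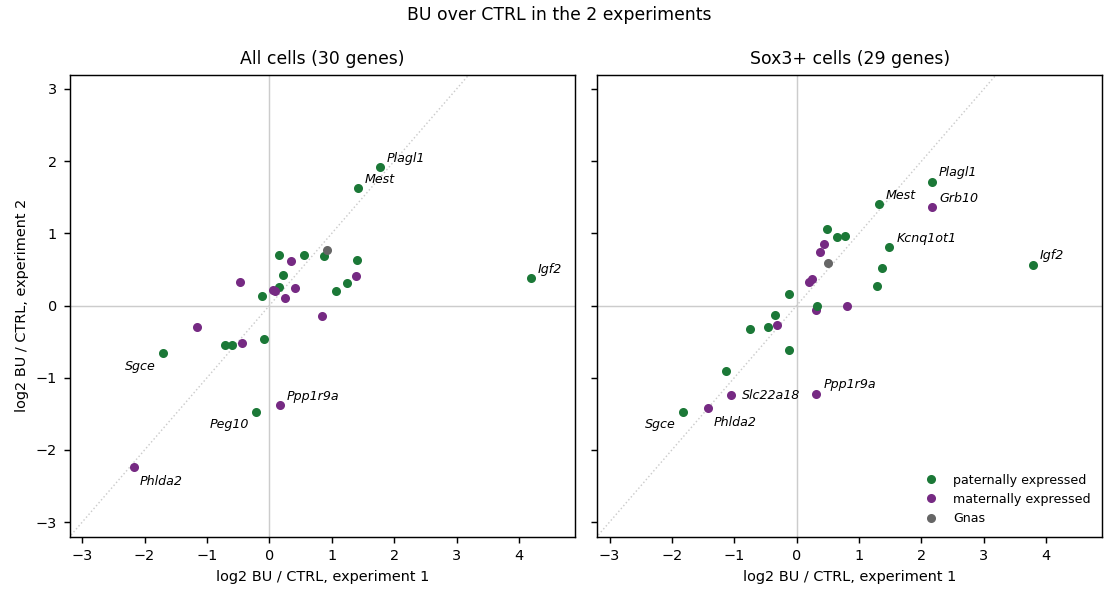
The log2 ratio of BU to CTRL in experiment 1 (horizontal) and experiment 2 (vertical) for each imprinted gene tested, in all cells and in Sox3+ cells (green, paternally expressed; purple, maternally expressed; grey, Gnas). Points on the dotted line have equal ratios. Over all cells Igf2 and Ppp1r9a lie farthest from it, while Phlda2, Plagl1 and Mest lie near it.

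Of the remaining paternally expressed genes, Snrpn, encoding a splicing ribonucleoprotein, stood at 22.5, 14.2, 33.3 and 23.4 CPM over all cells, with both BU libraries above CTRL. Peg3, a zinc finger gene, stood at 5.89, 10.2, 12.8 and 11.8 CPM, and its neighbour Usp29 at 2.34, 1.62, 1.38 and 0.955. Peg3 lay higher and Usp29 lower in both BU libraries, and neither was called with condition alone or with the block. Zrsr1, a retrogene similar to Zrsr2 that may share reads with it, stood at 9.51, 12.1, 8.91 and 8.67 CPM. Nnat, encoding neuronatin, stood at 6.49, 3.52, 7.29 and 6.01 CPM and overlapped between the groups. Nespas, the antisense transcript of the Gnas locus, stood at 4.34, 11.3, 12.2 and 17.7 CPM, with both BU libraries above CTRL. Snrpn shares 27.3% of its exonic bases with Gm38393 on the same strand, so its counts are uncertain. For Mest, 91.2% of the last 1000 exonic bases lie opposite Copg2, on the other strand.

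Of the maternally expressed genes, Meg3, the non-coding RNA next to Dlk1, stood at 24.9, 22.9, 29.7 and 24.7 CPM over all cells, and Dlk1 itself at 63.6, 47.6, 38.6 and 32.3. The Dlk1 libraries did not overlap between BU and CTRL (edgeR with the block, -0.61, SE 0.23, adjusted p = 0.205), while those of Meg3 did. Igf2r, the receptor that clears IGF2, stood at 12.98, 19.4, 23.6 and 17.5 CPM and overlapped between the groups. Cdkn1c stood at 89.7, 93.4, 66.0 and 64.9 CPM, with both BU libraries below CTRL (edgeR with the block, -0.46, SE 0.20, adjusted p = 0.282). Kcnq1ot1, in the same cluster, stood at 35.2, 77.6, 84.1 and 96.4 CPM, with both BU libraries above CTRL. Ascl2, a basic helix-loop-helix transcription factor, stood at 47.1, 28.5, 49.0 and 33.1 CPM, and Tssc4 at 58.3, 42.1, 62.4 and 48.7. Both overlapped between BU and CTRL. Cd81 stood at 163, 108, 208 and 166 CPM, and Ppp1r9a at 15.5, 46.7, 17.4 and 17.6, with CTRL 2 apart from the other libraries. Gnas, whose transcripts from separate promoters share their 3′ end and cannot be told apart here, stood at 127, 226, 201 and 264 CPM in Gfra1+ cells against 69.9, 75.9, 95.1 and 133 in Sox3+ cells, for cells positive for 1 defining gene. It was higher in 4 of 4 libraries without passing the test (1.06, SE 0.48, adjusted p = 0.184 in edgeR). Without CTRL 2 it was called (adjusted p = 1.16e-08 in edgeR).

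Genes that set or keep imprints were read from a list of 15, all listed in the files. In Gfra1+ against Sox3+ cells 2 of the 13 tested were higher and 5 lower in edgeR, against 12.8% of all genes called in either direction. Uhrf1, which brings the maintenance methyltransferase Dnmt1 to replicating DNA, was higher (1.01, SE 0.14, adjusted p = 0.000784 in edgeR), as was Dnmt1 (0.45). The de novo methyltransferases Dnmt3a (-0.71) and Dnmt3b (-1.26), their cofactor Dnmt3l (-2.19), the dioxygenase Tet3 (-2.28) and Dppa3 (-5.06), which shields methylation in the zygote, were lower. Dppa3 stood at 0.309, 0.262, 0 and 0.203 CPM in Gfra1+ cells and at 11.2, 10.4, 7.86 and 2.53 in Sox3+ cells. Dnmt3l stood at 1.85, 0.524, 0.518 and 0.811 CPM against 9.36, 5.45, 4.32 and 1.75. Dppa3 and Dnmt3l passed the low count filter of edgeR here through Sox3+ and Kit+ cells alone, where they are high. Their calls in this comparison therefore carry little weight. With the experiment as a block, Uhrf1 was also higher in BU over all cells (edgeR, 1.26, SE 0.19, adjusted p = 0.035), at 86.4, 66.5, 216 and 146 CPM, the only 1 of 15 called (1.49% of all genes). In Sox3+ cells Uhrf1 (1.19) and Dnmt1 (1.02) were higher and Dnmt3l (-1.88) was lower, 3 of 15 (5.69% of all genes). The list of cell cycle genes was also higher in BU over all cells and in Sox3+ cells, as given above. Its part here was not tested. Dnmt3l was the only 1 of 11 called in Kit+ cells (-3.34, against 0.952% of all genes). It stood there at 24.2, 6.22, 1.80 and 0.819 CPM, on 36 and 37 cells in CTRL, where 3 UMIs equalled 9.07 and 2.66 CPM. Dnmt3l passed the low count filter of edgeR there through CTRL alone, where it is high, so this call carries little weight. In Kit+ against Sox3+ cells the zinc finger gene Zfp445 was higher (1.07), at 0, 41.9, 7.89 and 38.2 CPM against 1.17, 20.4, 3.14 and 16.0, 1 of 13 called (14.3% of all genes), and 0 of the list were lower.

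The IGF axis list held 14 genes. In Gfra1+ against Sox3+ cells 3 of 12 tested were higher in edgeR, the binding protein gene Igfbp5 (1.78), the insulin receptor gene Insr (1.69) and Igf2bp1 (0.67), and 2 were lower, Igfbp2 (-0.92) and Igfbp6 (-3.07), against 12.8% of all genes called. Insr stood at 4.01, 4.98, 2.72 and 3.04 CPM in Gfra1+ cells and at 0.920, 1.92, 1.18 and 0.779 in Sox3+ cells. Insr passed the low count filter there through Gfra1+ and Kit+ cells and not through Sox3+ cells, so its call carries little weight. Igfbp6, encoding a binding protein that prefers IGF2, stood at 29.3, 12.8, 8.16 and 10.2 CPM in Gfra1+ cells and at 189.9, 143, 63.3 and 89.2 in Sox3+ cells. In BU against CTRL it was lower with the block over all cells (edgeR, -2.63, SE 0.25, adjusted p = 0.0184), at 138, 96.2, 18.3 and 18.3 CPM, 1 of 14 called against 1.49% of all genes. It was also lower in Sox3+ cells (-1.91), 1 of 12 called against 5.69% of all genes, and in Kit+ cells (-3.17), where 2 of 9 were called against 0.952%. Igfbp7 was lower with the block in Kit+ cells (-4.89), at 6.05, 220.2, 2.99 and 3.51 CPM, and was highest in the library with the Leydig transcripts. It passed the low count filter there through CTRL alone, where it is high, so its call carries little weight. In Kit+ against Sox3+ cells 0 of 12 were higher and 3 lower, Igfbp6 (-3.17), Irs2 (-1.80) and Igf2bp2 (-2.41), against 14.3% of all genes called.

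A further list of 44 imprinted genes, 41 of them listed, gave 0 of 18 genes called between Gfra1+ and Sox3+ cells in edgeR, against 12.8% of all genes, with 4 at an unadjusted p under 0.05 (26.2% of all genes). Of the same 18, 2 were called against 14.3% of all genes, Inpp5f (-0.65) and Slc38a4 (-1.36) lower in Kit+ than in Sox3+ cells. In BU against CTRL with the block, Dio3, encoding a deiodinase that inactivates thyroid hormone, was lower over all cells (-2.73, 1 of 30 called against 1.49% of all genes) and in Sox3+ cells (-2.55, 1 of 3 called of 23, against 5.69%), at 4.46, 5.70, 0.783 and 0.993 CPM in the latter. In Sox3+ cells the amino acid transporter gene Slc38a4 was also lower (-1.17) and Peg12 higher (3.24), at 0.146, 0.158, 2.55 and 1.08 CPM. Peg12 passed the low count filter there through BU alone, where it is high, so its call carries little weight. With condition alone 0 genes of these 3 lists were called between BU and CTRL in edgeR, over all cells or in any class.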

How the data were processed

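Single-cell RNA-seq was made from 4 libraries of sorted spermatogonia. The authors deposited raw UMI counts per gene and cell as filtered Cell Ranger 3.0.2 output (version per the file headers), with no normalisation. The paper names mm10 and the labels name GRCm39. Totals per library were 21136369 to 53579969 UMIs, and the number of libraries limits the precision. Cells with at least 1000 genes and under 20% mitochondrial UMIs were kept. UMIs were summed per library and class and tested with edgeR 4.0.16 (filterByExpr, TMM, quasi-likelihood, Benjamini-Hochberg at 0.05, R 4.3.3), with DESeq2 1.42.0 as an alternative. BU was compared with CTRL by condition alone, and classes with the library as a block. Same-numbered libraries deviated together, with a correlation over genes of 0.779 over all cells, 0.664 in Gfra1+, 0.615 in Sox3+ and 0.490 in Kit+ cells, and both libraries of an experiment shared a sequencing lane. Doublets were kept, and leaving out 132 cells marked by scrublet in scanpy 1.11.5 was an alternative. Scripts were tested on simulated data. Coordinates are those of GENCODE M21 (GRCm38). Genes with 10 CPM in a library of a class, or called in any fit, are described, the others by range, with at most 6 called genes for each further list and comparison (Dnmt1 was named beyond this after its values were seen). The genes and lists were chosen with earlier results of these data known.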

Additional observations from a re-analysis of the deposited data

Results flagged for a closer look

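For Grb10 and H19 the sign of the BU to CTRL ratio was opposite in 2 classes in both experiments, and the difference was not tested. The log2 ratio of BU to CTRL for Grb10 was -0.11 and -0.017 in Gfra1+ cells (experiments 1 and 2) and 1.96 and 0.43 in Kit+ cells. For H19 it was -0.11 and -0.38 in Kit+ cells and 0.25 and 0.37 in Sox3+ cells. Several of these ratios lie within counting error, so they show no direction. Grb10 in Gfra1+ cells stood at 4.61 CPM (exact Poisson 95% interval 3.13 to 6.54) in CTRL 2 and 4.55 (3.74 to 5.48) in BU 2, and H19 in Kit+ cells at 33.3 (16.6 to 59.5) in CTRL 1 and 30.8 (25.2 to 37.4) in BU 1.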

How the results depend on the processing

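Counts of imprinted genes called moved as follows. Numbers of all genes called are given below for the block and DESeq2 only, so the other counts do not set imprinted genes apart. Over all cells, BU against CTRL gave 0 with condition alone, 3 with the experiment as a replicate block and 2 with DESeq2. In Gfra1+ cells it gave 3 without the low count filter, 1 with DESeq2 and 0 to 1 with 1 library left out. In Sox3+ cells it gave 6 with the block, 5 without the filter, 4 with DESeq2 and 0 to 6 with 1 library left out (6 without CTRL 2). With the replicate block and only cells positive for 1 class gene, it gave 1 in Gfra1+ (Plagl1) and 3 in Sox3+ cells. In such Kit+ cells it gave 1, Gnas (lower, 111, 496, 64.4 and 73.1 CPM), and 1 CTRL 2 cell held 163 of 201 UMIs. In Kit+ cells it gave 2 without the filter and 0 to 2 with 1 library left out. Gfra1+ against Sox3+ cells gave 4 without the replicate block, 16 with cells of 2 classes kept, 15 without somatic-marker cells, 3 with classes set by any UMI, 14 with those after thinning, and 7 to 17 with 1 library left out. Kit+ against Sox3+ cells gave 1 without the block, 11 without somatic-marker cells, 0 with classes set by any UMI, before and after thinning, and 0 to 13 with 1 library left out. The class by condition term gave 0 to 1 with 1 library left out (1 without CTRL 1, Cd81). Genes called in all went from 0 to 258 over all cells, 9 in Gfra1+, 822 in Sox3+ and 105 in Kit+ cells with the block, and to 120, 15, 333 and 46 with DESeq2. Igf2 reversed without BU 1, the lowest of its log2 fold changes with 1 library left out, which ranged from -0.78 to 5.17 over all cells, -0.84 to 4.61 in Gfra1+ and -0.18 to 4.53 in Sox3+ cells. That fit sets BU 2 beside CTRL 1 as well as CTRL 2, and the gene list of CTRL 1 lacks Gm49394, which overlaps Igf2. Within experiment 2 the log2 ratio of Igf2 was 0.38 over all cells, 0.017 in Gfra1+ and 0.57 in Sox3+ cells. Of 428 alternative values of named genes, 342 kept direction and side of the threshold, 51 lost the call, 32 gained it and 3 reversed, and the cause was not tested. A lone library left in a group was assumed to vary like the others. The alternatives without shared barcode copies, and with the block in cells of 1 class, were chosen after seeing the data.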
